A study of Homo sapiens with 18 samples.

Results

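The 10 genes described here belong to the calcium-linked S100 and annexin families, and they were followed across control treatments of human kidney cells. They are 6 S100 genes (S100A2, S100A4, S100A6, S100A10, S100A11 and S100A16) and 4 annexin genes (ANXA1, ANXA2, ANXA3 and ANXA5). Each gene was read from the probe set that is assigned to it alone and had the highest mean over the 18 arrays. All 10 passed the filter on low values and are 10 of the 10832 genes tested. The arrays were Affymetrix HG-U133 Plus 2.0 chips hybridized with labelled RNA of HK-2 cells, an immortalized line of human renal proximal tubular epithelium. The study collected them as controls in a search for expression signatures of nephrotoxic compounds, and the compounds were not analysed here. The 6 groups had 3 biological replicates each. They were cells in medium, cells with DMSO and cells with ethanol, each for 24 h and for 48 h. DMSO and ethanol were the solvents in which test compounds are given, and the sources used here state no dose of either. The series text names a shorter early time than the sample labels, and the labels were used. All 6 groups grew in the same DMEM and Ham's F12 mixture with EGF, hydrocortisone, insulin, transferrin and selenite, so none was free of a glucocorticoid. All cultures came from 1 cell line, and the p-values below measure the spread between its cultures.

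S100 proteins are small dimeric EF-hand proteins. Calcium opens a surface on them that grips partner proteins of the cytoskeleton and the plasma membrane. Annexins bind acidic phospholipids when calcium rises, and several gather at wounded membrane. The families meet in a complex of S100A10 and annexin A2 under the plasma membrane, in which S100A10 holds its active shape without calcium. ANXA1 is a glucocorticoid-inducible gene, and its product dampens inflammation. In injured kidney tubules, S100 and annexin genes are often among those that are induced.

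Values are log2 expression as the authors deposited them, so a difference of 1 is a doubling. A difference passed where limma's Benjamini-Hochberg adjusted p, taken over all 10832 genes, was under 0.05. Errors on differences are standard errors, brackets give 95% intervals, and each group holds 3 arrays (n = 3). Fewer cells and less RNA per cell cannot be told apart on such arrays.

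The arrays were alike in overall level, with medians between 2.86 and 2.95 and between 39.7% and 40.3% of probe sets above a log2 value of 4. Only PAX8 among the 11 proximal tubule markers on the array was above that level, while transporters and receptors such as LRP2, CUBN and SLC34A1 were below it. All 6 epithelial markers were above it. None of 5 endothelial and none of 5 blood cell markers was. Both ethanol arrays of replicate 3 stood apart. On the second principal component (30.7% of the variance) they scored -52.3 and -61.6, against -21.2 to 20.5 on the others, and their epithelial cadherin CDH1 was at 2.58 and 3.77. Results with ethanol are therefore also given without these arrays where that moves a call.

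By RefSeq gene order, S100A6, S100A4, S100A2 and S100A16 lie with S100A5 and S100A3 in a run of 6 consecutive protein-coding genes on chromosome 1. S100A10 and S100A11 are neighbours on the same chromosome, 52 protein-coding genes away from that run. The annexins are spread out, with ANXA3 and ANXA5 on chromosome 4, ANXA1 on chromosome 9 and ANXA2 on chromosome 15. The 250 bases before the RefSeq start of transcription are printed for S100A2, S100A10 and ANXA1, since these are the members that differed between ethanol and medium at 48 h, the first pair downward and ANXA1 upward. Each runs 5′ to 3′ on the gene's strand, with capitals marking the searched motifs. The S100A2 stretch lies at chr1:153565845-153566094 on the minus strand, that of S100A10 at chr1:151993860-151994109 on the minus strand and that of ANXA1 at chr9:73151615-73151864 on the plus strand (GRCh38.p14).
S100A2: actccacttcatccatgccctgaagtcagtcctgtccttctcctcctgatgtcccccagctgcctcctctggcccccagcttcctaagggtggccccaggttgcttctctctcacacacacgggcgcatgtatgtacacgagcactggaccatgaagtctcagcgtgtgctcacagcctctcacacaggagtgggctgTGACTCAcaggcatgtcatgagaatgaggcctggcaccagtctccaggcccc
S100A10: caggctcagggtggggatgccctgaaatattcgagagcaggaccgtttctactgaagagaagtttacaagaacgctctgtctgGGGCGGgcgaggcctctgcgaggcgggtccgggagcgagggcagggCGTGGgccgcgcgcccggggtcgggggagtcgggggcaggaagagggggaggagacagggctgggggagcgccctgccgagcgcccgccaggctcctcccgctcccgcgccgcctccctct
ANXA1: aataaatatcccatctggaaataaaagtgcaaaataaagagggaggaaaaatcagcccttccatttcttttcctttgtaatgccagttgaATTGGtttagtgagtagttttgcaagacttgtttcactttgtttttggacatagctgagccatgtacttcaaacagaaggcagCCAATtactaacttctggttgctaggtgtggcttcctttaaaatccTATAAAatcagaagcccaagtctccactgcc
The capitals in the S100A2 stretch are an AP-1 letter match (TGANTCA), with its first base 52 bases before the start. In S100A10 they are a GC box (GGGCGG) at 167 bases and the core of the unfolded protein response element (CCACG, here on the opposite strand) at 121 bases. In ANXA1 they are CCAAT boxes at 160 (on the opposite strand) and 77 bases and a TATA box (TATAAA) at 31 bases. Both strands of 35116 promoters of that length were searched, and the counts of members use the outermost RefSeq start of each gene. The AP-1 letters were in 6.57% of them and in 2 of the 10 members (S100A2 and ANXA2). CCAAT was in 32.0% of all and in 1 member, ANXA1. TATAAA was in 10.7% of all and in 3 members, S100A4, ANXA1 and ANXA2. GGGCGG was in 42.6% of all and in 5 members, and CCACG in 33.5% of all and in 6. The hypoxia response core ACGTG, which can overlap CCACG, was in 18.5% of all and in 0 of the 10. The composite C/EBP and ATF element TGATGNAA was in 3.14% of all and in 0 of the 10. A further listed start of S100A2 had no match to any of these motifs. A further start of S100A16, not in the counts, had CCAAT at 237 and 29 bases, CCACG at 174 and 53, ACGTG at 118 and GGGCGG at 45. These are matches of letters, and the arrays say nothing on binding.

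**Figure D1:**
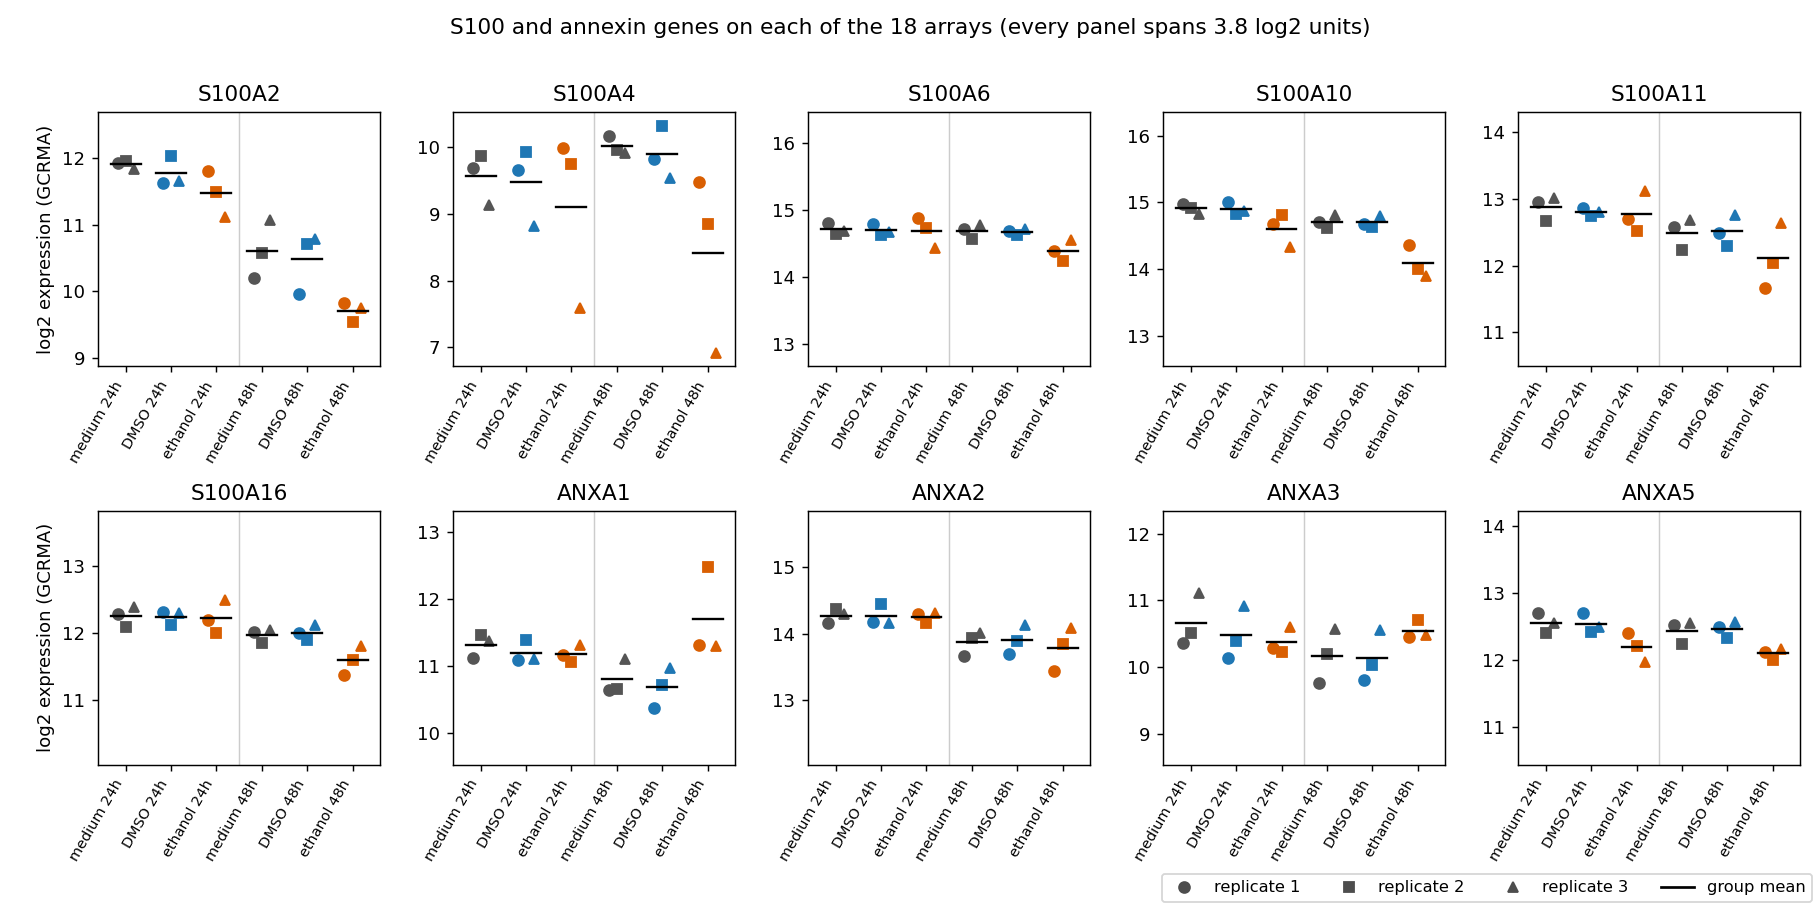
Log2 expression of the 10 genes on each of the 18 arrays, 1 panel per gene, with the 6 groups along the horizontal axis, 1 point per array marked by replicate and a line at each group mean. Every panel spans the same number of log2 units, and S100A2 shows the widest spread of group means (2.20), from 11.90 in medium at 24 h to 9.71 with ethanol at 48 h.

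Among the 6 group means, S100A2 had the widest range of the 10 genes (2.20), followed by S100A4 (1.60), ANXA1 (1.01), S100A10 (0.82) and S100A11 (0.77). S100A6 had the narrowest (0.32), below ANXA5 (0.45) and ANXA2 (0.48). The typical spread between replicates also differed, with a median group SD of 0.10 for S100A6 and S100A10 and of 0.49 for S100A4. In the order of group means, ethanol at 48 h was lowest for all 6 S100 genes, for ANXA2 and for ANXA5, second highest for ANXA3 and highest for ANXA1. Most neighbours in that order overlapped. For S100A2 the only steps without overlap were from ethanol at 24 h down to medium at 48 h and from DMSO at 48 h down to ethanol at 48 h.

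The comparison of ethanol with medium at 48 h asks how these genes differ between cultures with the solvent and cultures in medium alone. Deviations of same-numbered arrays from their group means correlated at -0.0834 to 0.345 between ethanol and medium at 48 h. Between DMSO and medium at 48 h they correlated at 0.669 to 0.72. The labels do not state whether the ethanol cultures were run alongside those in medium, and the part of this in the differences was not tested. With ethanol, S100A2 and S100A10 were lower and ANXA1 was higher, each by less than 2-fold. S100A4, S100A6, S100A11, S100A16 and ANXA5 were lower in mean without passing. ANXA2 and ANXA3 did not pass either. So 3 of the 10 genes passed (1 higher, 2 lower), against 15.3% of all genes tested (7.8% higher, 7.47% lower). The 10 differences had a median of -0.36, against -0.04 over all genes, with a median of -0.50 in the S100 genes and of 0.15 in the annexins. Arrays of both groups did not overlap for 7 members, 6 lower and 1 higher with ethanol, where 29.6% of all genes did not overlap (15.4% lower, 14.2% higher).

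S100A2, an EF-hand protein of epithelial cells and a target of the p53 family, read 9.82, 9.54 and 9.76 with ethanol at 48 h. In medium at that time it read 10.20, 10.57 and 11.07. Every ethanol array was below every medium array, and below every DMSO array of that time (9.96, 10.71 and 10.79). The difference was -0.91 ± 0.24 [-1.42 to -0.39], a fold of 1.87 (adjusted p = 0.0215). Without medium replicate 2 the adjusted p was 0.0508, without medium replicate 3 it was 0.102 with a difference of -0.68, and without ethanol replicate 2 it was 0.0749. With only the groups compared in the fit, S100A2 did not pass, and 114 of all genes passed in place of 1654.

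S100A10, the light chain of the complex with annexin A2, read 14.36, 14.01 and 13.90 with ethanol at 48 h, against 14.70, 14.62 and 14.82 in medium. Its groups did not overlap. The difference was -0.62 ± 0.14 [-0.91 to -0.34], a fold of 1.54 (adjusted p = 0.00724). The second probe set assigned to S100A10 differed by -0.40. The call was kept under 15 of 16 alternatives and lost with only the groups compared in the fit (adjusted p = 0.103).

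S100A4, which binds non-muscle myosin and is known for cell motility, read 9.47, 8.84 and 6.92 with ethanol at 48 h. In medium it read 10.16, 9.96 and 9.91. The ethanol arrays lay below the medium arrays but far apart from each other, with an SD of 1.33 against 0.13 in medium. The difference of -1.60 ± 0.62 [-2.92 to -0.27] was the largest of the 10 in size and did not pass (adjusted p = 0.0961). Without ethanol replicate 3 it was -0.85, and without ethanol replicate 1 it was -2.13 and passed (adjusted p = 0.0308). At 24 h the array of ethanol replicate 3 also read low for S100A4 (7.58), against 9.99 and 9.74 on the other ethanol arrays. The mean level of the 6 epithelial markers on both replicate 3 ethanol arrays was 9.26 and 9.80, below the 10.54 to 11.13 of the other 16 arrays. These markers spread unequally over the ethanol arrays of 48 h. CDH1 ranged from 3.77 to 9.04, EPCAM from 12.12 to 13.68 and KRT18 from 12.31 to 13.34. KRT8 ranged from 10.75 to 11.12, KRT7 from 7.22 to 7.72 and KRT19 from 11.90 to 12.01. Of the 7 fibroblast markers 3 were above log2 4 (DCN, LUM and COL1A1), and COL1A2, COL3A1, PDGFRA and PDGFRB were below. Their list averaged 5.40 to 5.71 with ethanol at 48 h and 5.71 to 5.80 in medium. Its genes did not move as one: DCN was at 12.21 on the 48 h ethanol array of replicate 3 and at 9.86 and 9.40 on the others, while COL1A2 was at 2.86 and at 3.89 and 3.47. The part of these levels in the S100A4 values was not tested.

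S100A6 (calcyclin), S100A11 (calgizzarin, a partner of annexin A1) and S100A16 were lower in mean with ethanol at 48 h without passing. For S100A6 the arrays read 14.39, 14.25 and 14.55 with ethanol and 14.71, 14.57 and 14.78 in medium, a difference of -0.29 ± 0.12 (adjusted p = 0.110). S100A16 read 11.37, 11.60 and 11.80 against 12.01, 11.85 and 12.04, a difference of -0.38 ± 0.14 (adjusted p = 0.0854). Neither gene's groups overlapped, by narrow margins. S100A11 read 11.67, 12.04 and 12.64 against 12.58, 12.23 and 12.68, and its groups overlapped (-0.38 ± 0.22, adjusted p = 0.266). When both ethanol arrays of replicate 3 were left out, S100A6 (-0.37, adjusted p = 0.0263), S100A11 (-0.64, 0.0220) and S100A16 (-0.48, 0.0198) passed, and 6 members passed in all against 17.3% of all genes.

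ANXA1, the anti-inflammatory annexin, read 11.31, 12.47 and 11.30 with ethanol at 48 h. Medium arrays of that time read 10.63, 10.65 and 11.10. The groups did not overlap, and ethanol replicate 2 was the highest of all 18 arrays. The difference was 0.90 ± 0.26 [0.34 to 1.45], a fold of 1.86 (adjusted p = 0.0313). Without that array it was 0.51 (adjusted p = 0.0977), without medium replicate 1 it was 0.82 (0.104) and without medium replicate 2 it was 0.83 (0.0917). ANXA1 kept its call under 11 of 16 alternatives, with a highest adjusted p of 0.199.

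ANXA2, the heavy chain that S100A10 binds, read 13.44, 13.84 and 14.09 with ethanol and 13.66, 13.94 and 14.01 in medium at 48 h. These ranges overlapped. The difference of -0.08 ± 0.16 [-0.42 to 0.26] did not pass (adjusted p = 0.787). The probe set is of a kind that can bind near-identical sequences, and the other ANXA2 probe sets above the level that are assigned to it alone gave -0.09 and -0.06. ANXA5, which binds exposed phosphatidylserine, read 12.13, 12.01 and 12.17 against 12.52, 12.25 and 12.56, a difference of -0.34 ± 0.13 (adjusted p = 0.0954). ANXA3 read 10.46, 10.70 and 10.48 against 9.77, 10.19 and 10.57, a difference of 0.37 ± 0.26 (adjusted p = 0.356). The groups of ANXA5 did not overlap and those of ANXA3 did.

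The 28S ribosomal RNA control was at 10.16 ± 0.17 (SD) with ethanol at 48 h, 9.71 ± 0.23 in medium and 8.92 ± 0.28 with DMSO. At 24 h it was at 10.58 ± 0.24, 9.39 ± 0.39 and 7.94 ± 0.36 in the same order. The gap between the 3′ and 5′ ACTB controls at 48 h was 0.89 ± 0.23 with ethanol and 0.90 ± 0.23 in medium. The part of the ribosomal control level in the values above was not tested.

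**Figure D2:**
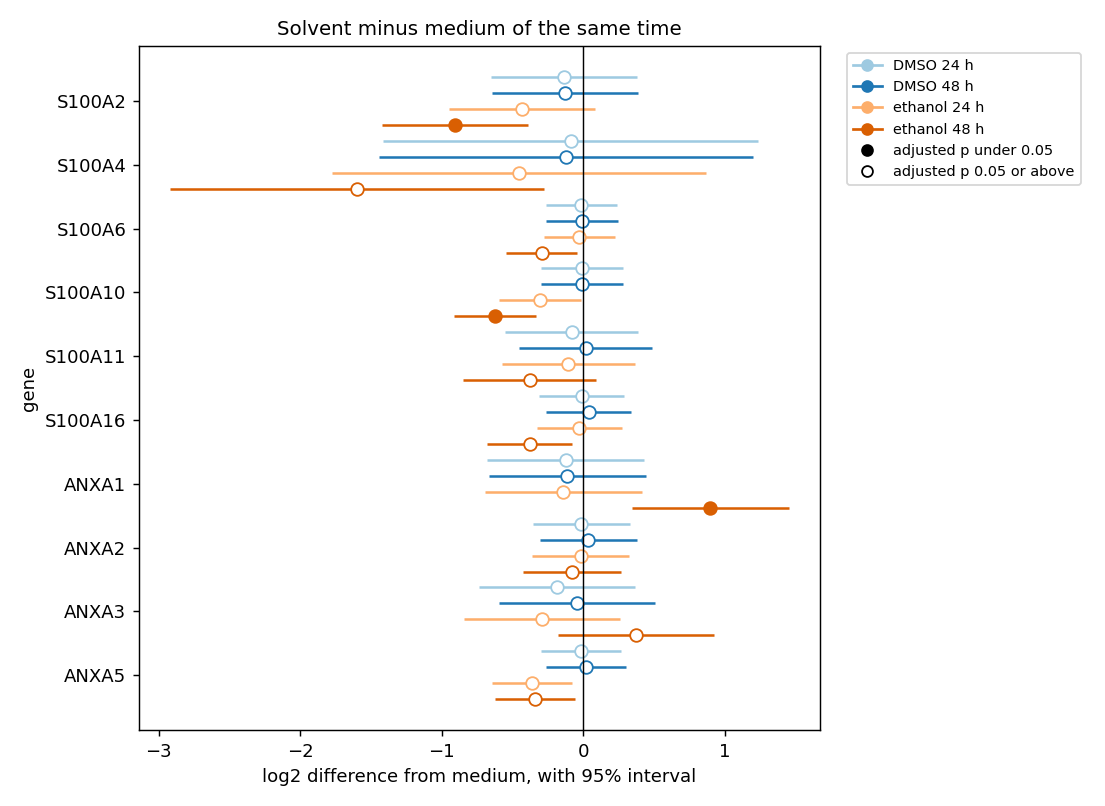
Log2 difference of ethanol and of DMSO from medium at 24 h and 48 h for the 10 genes, with 95% intervals from the limma fit (n = 3 arrays per group). Filled points have an adjusted p under 0.05, and only S100A2, S100A10 and ANXA1 with ethanol at 48 h are filled.

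At 24 h, ethanol left all 10 members without a call in limma. All 10 means were lower than in medium, from -0.45 (S100A4) to -0.02 (ANXA2). With DMSO at 24 h all 10 means were also lower than on the same medium arrays, from -0.184 to -0.008. At that time 0.0739% of all genes passed, all lower, and 965 genes had an unadjusted p under 0.05, S100A10 and ANXA5 among them. S100A10 read 14.68, 14.81 and 14.33 with ethanol and 14.98, 14.92 and 14.83 in medium, a difference of -0.30 ± 0.14 (adjusted p = 0.531). For ANXA5 the arrays read 12.40, 12.21 and 11.97 against 12.70, 12.41 and 12.55, a difference of -0.36 ± 0.13 (adjusted p = 0.437). S100A2 differed by -0.43 ± 0.24 (adjusted p = 0.662). The groups of these 3 genes did not overlap, all lower with ethanol and by narrow margins. For S100A2 the highest ethanol array was at 11.80 and the lowest medium array at 11.83. Of all genes, 14.6% did not overlap (8.95% lower). With the replicate as a block, 111 genes (1.02%) passed and no member did. Without ethanol replicate 3, the S100A4 difference at 24 h changed from -0.45 to 0.31. Across alternatives the highest difference at 24 h was also above 0 for S100A6 (0.296), S100A11 (0.0244), S100A16 (0.0859) and ANXA2 (0.0337).

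**Figure D3:**
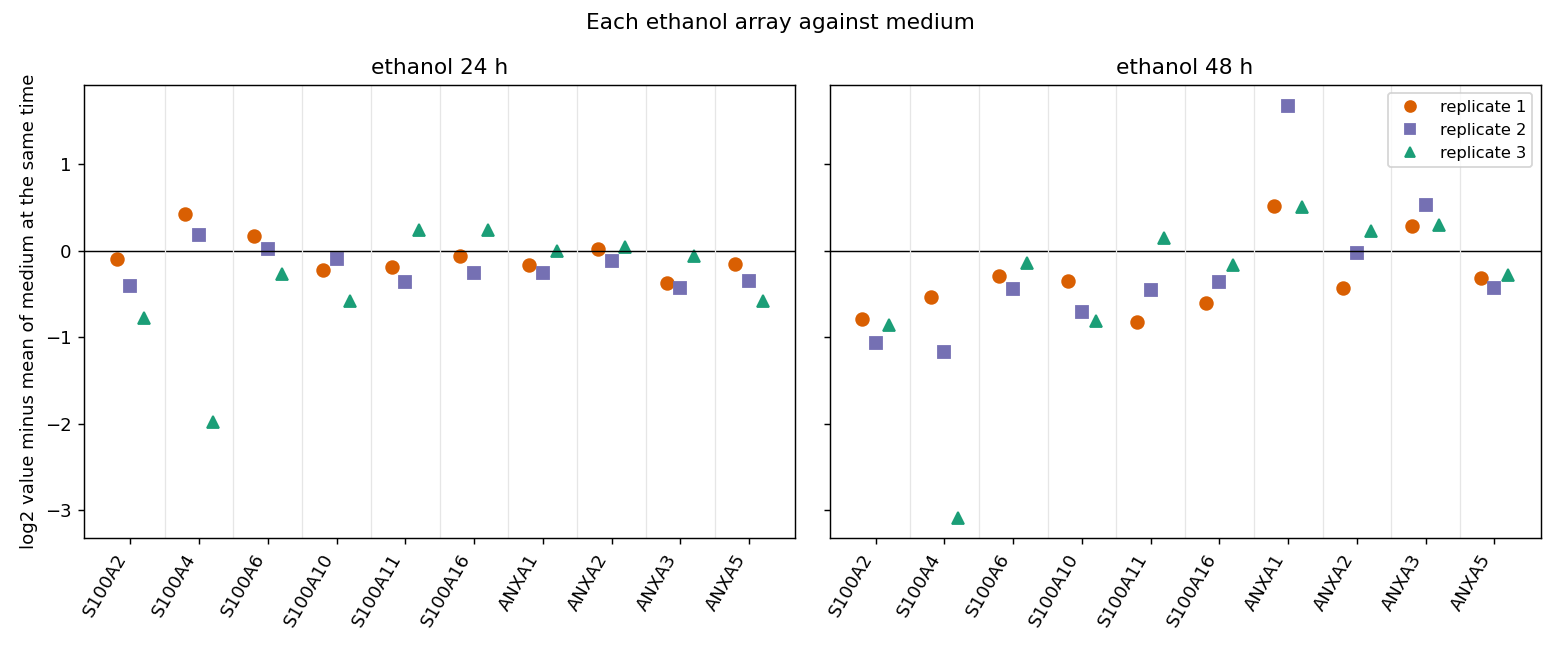
Each ethanol array minus the mean of the medium arrays of the same time, in log2 units, for the 10 genes at 24 h and 48 h, with replicates told apart by marker. Replicate 3 lies far below the other replicates for S100A4 at both times, and replicate 2 lies above them for ANXA1 at 48 h.

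DMSO was compared with the same medium arrays as ethanol, and differences were small. In the limma fit of all 18 arrays without a replicate block, none of the 10 passed at 24 h or at 48 h. Nor did any other gene (0.0% at both times). At an unadjusted p under 0.05 were 204 and 53 genes of all tested, with no member among them. A fit of the 12 DMSO and medium arrays alone, with the replicate as a block, was added after the data were seen. There 11 genes passed at 24 h (2 higher, 9 lower) and 0 at 48 h, with no member among them. In the fit of all 18 arrays, the largest difference in size was -0.18 ± 0.26 for ANXA3 at 24 h and -0.13 ± 0.24 for S100A2 at 48 h. In neither case did a member's groups separate, against 9.42% of all genes at 24 h and 3.65% at 48 h. What the fit of all 18 arrays without a replicate block leaves room for differs by gene. Its intervals treat DMSO and medium arrays as unpaired. Same-numbered arrays of these groups deviated together at 48 h, with correlations of 0.669 to 0.72. The intervals may therefore be wider than a paired fit would give. S100A10 at 48 h read 14.68, 14.63 and 14.80 with DMSO and 14.70, 14.62 and 14.82 in medium, in order of replicate. The interval at 48 h was -0.30 to 0.28 for S100A10, -0.26 to 0.24 for S100A6 and -0.64 to 0.39 for S100A2. For S100A4 it was -1.44 to 1.20. That interval rests on a spread pooled over all 6 groups, in which the ethanol groups had SDs of 1.32 and 1.33 and medium and DMSO at 48 h had 0.13 and 0.39.

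The comparison of 48 h with 24 h asks how the members move with time in culture under each control. S100A2 had the largest time difference under each of the 3. In medium it read 11.92, 11.95 and 11.83 at 24 h and 10.20, 10.57 and 11.07 at 48 h. With DMSO it read 11.62, 12.02 and 11.65 and then 9.96, 10.71 and 10.79, and with ethanol 11.80, 11.49 and 11.12 and then 9.82, 9.54 and 9.76. Every array at 48 h was below every array at 24 h of the same control. The differences were -1.29 ± 0.24 in medium (adjusted p = 0.158), -1.28 ± 0.24 with DMSO (0.350) and -1.76 ± 0.24 with ethanol, a fold of 3.40 (0.000228). Only the last passed, and it did so under 16 of 16 alternatives. Same-numbered arrays of the medium and DMSO groups deviated together, with correlations of 0.526 to 0.731. Ethanol arrays correlated less with these, at 0.149 to 0.48 for 24 h and -0.0834 to 0.411 for 48 h. Between the ethanol groups the range was 0.319 to 0.68. With the replicate as a block in a fit that included the ethanol arrays, S100A2 also passed in medium (adjusted p = 0.0179) and with DMSO (0.0317). In that fit 4.04% and 2.37% of all genes passed.

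With ethanol, 4 members passed between 24 h and 48 h, all lower and all S100 genes, against 23.0% of all genes (11.7% higher, 11.3% lower). Beside S100A2 these were S100A16, S100A10 and S100A11. S100A16 read 12.19, 12.00 and 12.49 at 24 h and 11.37, 11.60 and 11.80 at 48 h, without overlap (-0.63 ± 0.14, fold 1.55, adjusted p = 0.00527). It lost the call only with the groups compared alone in the fit (adjusted p = 0.131), where 95 of all genes passed in place of 2493. S100A10 went from 14.68, 14.81 and 14.33 to 14.36, 14.01 and 13.90, with overlap (-0.52 ± 0.14, adjusted p = 0.0130). Averaging its probe sets (-0.40, adjusted p = 0.0733), leaving out ethanol replicate 2 at 24 h (0.0505) and fitting the compared groups alone (0.193) ended that call. S100A11 went from 12.69, 12.52 and 13.12 to 11.67, 12.04 and 12.64, with overlap (-0.66 ± 0.22, adjusted p = 0.0430), and lost the call under 7 of 16 alternatives, among them leaving out ethanol replicate 1 (0.0724) or 3 (0.163) at 24 h, or 1 (0.166) or 2 (0.115) at 48 h.

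S100A6 was lower in mean over time with ethanol (-0.29 ± 0.12, adjusted p = 0.0923) and passed under 6 of 16 alternatives. The annexins did not pass. ANXA2 went from 14.29, 14.15 and 14.31 to 13.44, 13.84 and 14.09, without overlap (-0.46 ± 0.16, adjusted p = 0.0505). With the replicate as a block ANXA2 passed (adjusted p = 0.0143), where 32.8% of all genes passed. ANXA1 went from 11.15, 11.06 and 11.31 to 11.31, 12.47 and 11.30 (0.52 ± 0.26, adjusted p = 0.172). ANXA3 differed by 0.17 ± 0.26 and ANXA5 by -0.09 ± 0.13. In all, 3 members did not overlap between the times with ethanol (S100A2, S100A16 and ANXA2), against 30.2% of all genes. When both ethanol arrays of replicate 3 were left out, S100A6 (-0.49, adjusted p = 0.00956) and ANXA2 (-0.58, 0.0362) passed as well, so that 6 members passed, all lower, against 19.0% of all genes.

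In medium and with DMSO, 0 members and 0.0% of all genes passed over time in limma, with 1205 and 1105 genes at an unadjusted p under 0.05. S100A2 and ANXA2 were the members among these in each control. ANXA2 differed by -0.40 ± 0.16 in medium and -0.35 ± 0.16 with DMSO, ANXA1 by -0.52 ± 0.26 and -0.51 ± 0.26, and ANXA3 by -0.49 ± 0.26 and -0.35 ± 0.26. S100A4 was the one member with a higher mean at 48 h, by 0.45 ± 0.62 and 0.42 ± 0.62. In medium 6 members did not overlap between the times (5 lower, 1 higher, which was S100A4), against 26.6% of all genes (14.4% lower, 12.3% higher). With DMSO 4 did not, all lower, against 22.8% of all genes (12.3% lower).

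The medium and DMSO arrays were also fitted on their own with the replicate as a block, a choice made after the data were seen. In that fit of 12 arrays, 6 members fell from 24 h to 48 h in medium and the same number fell with DMSO, against 29.8% and 28.5% of all genes (17.3% and 15.0% lower). In medium they were S100A2 (adjusted p = 0.00161), S100A11 (0.00800), S100A16 (0.00450), ANXA1 (0.0153), ANXA2 (0.0129) and ANXA3 (0.000904). With DMSO the adjusted p values of these genes were 0.00201, 0.0301, 0.0113, 0.0182, 0.0241 and 0.00484, in that order. S100A4, S100A6, S100A10 and ANXA5 passed in neither.

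**Figure D4:**
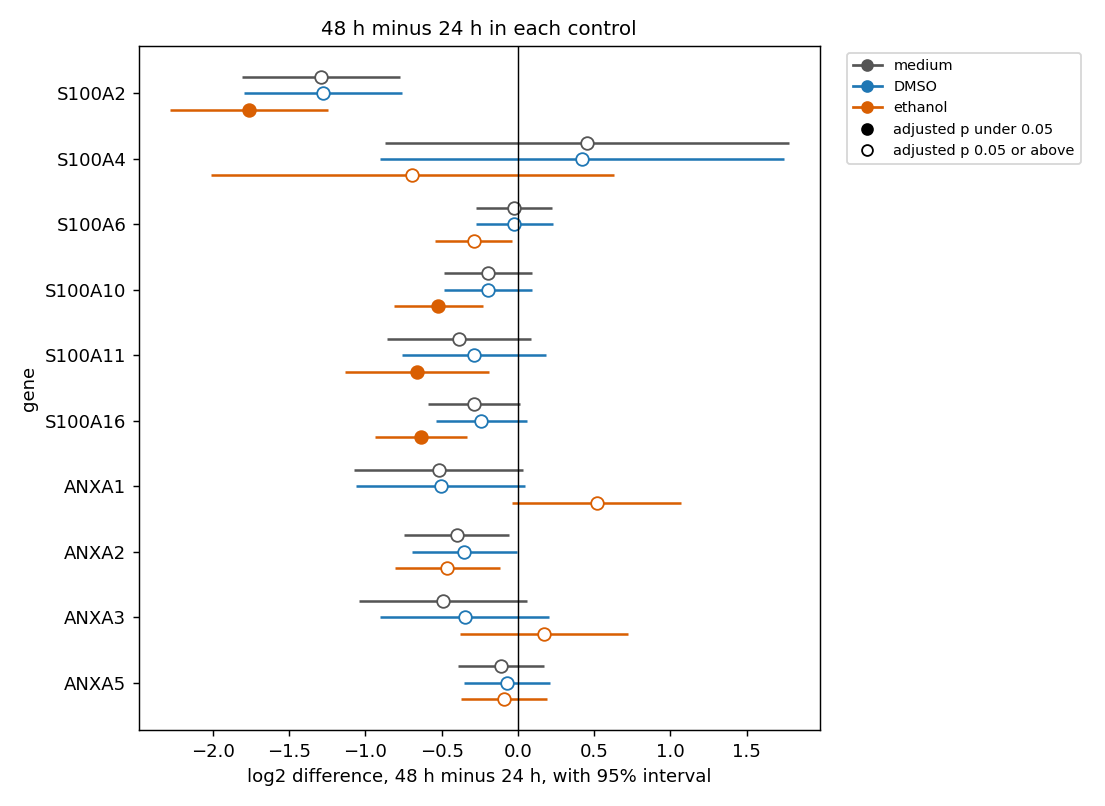
Log2 difference of 48 h from 24 h in medium, with DMSO and with ethanol for the 10 genes, with 95% intervals from the limma fit (n = 3 arrays per group). Filled points have an adjusted p under 0.05, and only S100A2, S100A10, S100A11 and S100A16 with ethanol are filled.

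Whether the change with time differed between ethanol and medium was tested as an interaction. These comparisons share the ethanol arrays with those above. No member passed in limma, against 1.59% of all genes, and of the 1497 genes with an unadjusted p under 0.05 ANXA1 was the one member. Its time difference was 0.52 with ethanol and -0.52 in medium, an interaction of 1.04 ± 0.37 [0.25 to 1.82] (adjusted p = 0.195). Across alternatives its adjusted p ran from 0.0457, with array weights, where 5.35% of all genes passed, to 0.357. S100A2 had an interaction of -0.47 ± 0.34 and S100A4 of -1.14 ± 0.88. The fall of S100A2 with time is thus not shown to differ between ethanol and medium. For DMSO against medium 0 members passed in limma (0.0% of all genes, 26 genes at an unadjusted p under 0.05, no member), and the largest interaction in size was 0.14 ± 0.36 for ANXA3.

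Other genes of the S100 family were mostly near background. Of 15 listed, 5 were tested (S100A1, S100A3, S100A7A, S100A13 and S100PBP, which encodes an S100P-binding protein). The inflammatory S100A8, S100A9 and S100A12 did not exceed 2.52 on any array, nor did S100B and S100P exceed 2.74. S100A13, which helps export FGF1, was lower with ethanol than in medium at 48 h (11.12 ± 0.29 against 11.76 ± 0.05 SD, -0.65, adjusted p = 0.0133). It was the 1 of the 5 that passed there, against 15.3% of all genes (7.47% lower). S100A13 also fell with time in ethanol (-0.56, adjusted p = 0.0202), as did S100A3 (-1.46, adjusted p = 0.0154). These were 2 of the 5, against 23.0% of all genes (11.3% lower). S100A3 lies between S100A4 and S100A2 on the chromosome. S100A5, between S100A6 and S100A4, stayed under 3.44. With time in medium, S100A2 differed by -1.29 (adjusted p = 0.158), its neighbour S100A3 by -1.06 (0.370) and S100A4 by 0.45 (0.788). None of these passed, and the genes of the run were not tested against each other.

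Of 9 other annexins, 6 were tested and 1 passed, ANXA11, which was lower with ethanol at 48 h (-0.38, adjusted p = 0.0463), where 15.3% of all genes passed and 7.47% were lower. ANXA4 differed by -0.01 there. None of the 6 passed over time with ethanol.

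Among 19 partners and receptors, 11 were tested and 3 were lower with ethanol than in medium at 48 h, against 7.47% of all genes. They were AHNAK (9.54 ± 0.46 against 10.53 ± 0.08 SD, -0.99, adjusted p = 0.00325), AHNAK2 (-0.83, 0.0406) and MYH9 (-0.84, 0.0339). AHNAK is the giant scaffold that docks on the S100A10 and annexin A2 complex, and MYH9 encodes the myosin heavy chain that S100A4 binds. MYH9 (-0.95, adjusted p = 0.0134) and the calcyclin-binding protein gene CACYBP (-0.40, 0.0316) fell with time in ethanol, 2 of the 11 against 11.3% of all genes. The plasminogen activator genes PLAT (0.24, adjusted p = 0.925) and PLAU (0.17, 0.867) did not pass with ethanol at 48 h. The receptors of extracellular annexin A1 and S100 proteins, FPR1, FPR2, FPR3, AGER and TLR4, did not exceed 3.02 on any array.

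Of 16 plasma membrane repair genes, 13 were tested and 3 were lower with ethanol at 48 h, against 7.47% of all genes: the calpain CAPN2 (-0.61, adjusted p = 0.00533), the ESCRT ATPase VPS4A (-0.58, 0.0203) and the caveola-neck protein gene EHD2 (-0.80, 0.00661). CAPN2 (-0.38, adjusted p = 0.0404), VPS4A (-0.45, 0.0464) and the caveola coat gene CAVIN1 (-1.24, 0.0249) fell with time in ethanol, 3 of the 13 against 11.3% of all genes. The ferlin DYSF (-0.30, adjusted p = 0.352) did not pass at 48 h. No gene of these 4 lists passed the test as higher in any comparison. Of all genes, 7.8% passed as higher with ethanol at 48 h and 11.7% over time with ethanol. None of the listed genes passed in either direction with DMSO, where 0.0% of all genes passed, or with ethanol at 24 h, where 0.0739% did.

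Patterns over the 18 arrays were described by Pearson's r for the 7 members whose group means ranged over more than 0.5. All points share the cell line, and the arrays are deposited in 1 table. S100A2 was most like SPA17 (r = 0.95), CSRP2 (0.94) and PIR (0.94), and S100A10 most like ISCA2 (0.97), CENPV (0.95) and OLFML2A (0.95). S100A16 was most like SH3BGRL3 (0.97), PARP1 (0.96) and DCAF15 (0.96), and S100A11 most like IRF3 (0.97), MYL9 (0.96) and GAL (0.96). For S100A4 the nearest were CBX5 (0.96), PLEKHA1 (0.96) and SLITRK5 (0.96), and without both ethanol arrays of replicate 3 these were 0.84, 0.85 and 0.83. ANXA1 had lower values, with SEC61B (0.85), TIMM17A (0.83) and KRT10-AS1 (0.82), and ANXA3 was nearest to DPH3 (0.91), HSP90AB1 (0.88) and DYNLL1 (0.85). Within the 10, S100A11 and S100A16 were the closest pair (r = 0.95), and S100A16 ranked 4th among all genes for S100A11. S100A10 and its binding partner ANXA2 had r = 0.35, and 0.61 without both ethanol arrays of replicate 3. ANXA1 and S100A11, whose proteins bind each other, had r = -0.11.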

How the data were processed

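RNA was measured on 18 arrays in 6 groups of 3. The authors deposited 1 table of GCRMA values, per the submitters' processing notes; GCRMA corrects background by probe sequence, quantile-normalizes and summarises probe sets. Its version, and which arrays shared a normalization run, are not stated there. The log2 scale of the deposited values was read from their range (0.88 to 16.1). Raw intensities were not used here. Of 54675 probe sets, 62 were controls, 41097 had 1 gene and 1801 several; symbols were updated through RefSeq for 41043. Genes entered with a value above 4 on at least 3 arrays, by their probe set of highest mean.

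Group means were fitted to all 18 arrays with limma 3.58.1 in R 4.3.3 (12 residual and 2.65 prior degrees of freedom), 9 two-sided contrasts, Benjamini-Hochberg within each. The fit was tested on simulated data. Named genes were the 10 members, all listed genes that passed, and up to 3 genes of highest Pearson r per member. Members and lists were chosen with earlier results of these data known. No read depth exists, and the number of arrays limits the precision.

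Replicate numbers come from the labels. Deviations of same-numbered arrays correlated at 0.526 to 0.731 among DMSO and medium groups, 0.149 to 0.48 for ethanol at 24 h with these, 0.319 to 0.68 between the ethanol groups, and -0.0834 to 0.345 for ethanol with medium at 48 h. The main fit treated no groups as paired, and fits with the replicate as a block are given as alternatives.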

Additional observations from a re-analysis of the deposited data

How the results depend on the processing

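Alternatives changed the normalization, the filter, the empirical Bayes step, array weights, the groups in the fit, the probe set rule and the arrays left out. Of 1610 alternative values of single members, 1551 kept their side of the threshold, 38 passed newly, 21 no longer passed, and 0 called values turned sign. For ethanol against medium at 48 h, 3 members passed. With only the compared groups in the fit the count was 0, and 114 of all genes passed in place of 1654. It was 6 without both ethanol arrays of replicate 3, where 1879 of all genes passed. When single arrays were left out it was 1 to 4. For time with ethanol, 4 members passed. With only the compared groups the count was 1, and 95 of all genes passed in place of 2493. It was 3 to 6 when single arrays were left out. For time in medium and for time with DMSO, 0 members passed. The count was 1 each with array weights, where 54 and 95 of all genes passed. It was 1 each without both ethanol arrays of replicate 3. For the interaction of ethanol and time, 0 passed, and 1 with array weights, where 580 of all genes passed in place of 172. The other member counts, all 0, stayed at 0. Member counts given here without a count of all genes do not tell a change in the members from one in all genes.

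With the replicate block, 6 members passed for ethanol against medium at 48 h, where the arrays were not treated as paired: S100A4 (adjusted p = 0.0136), S100A16 (0.0160) and ANXA5 (0.0304) came in addition, and 2811 of all genes passed in place of 1654. The replicate block gave 1 member (S100A2) for time in medium and 1 for time with DMSO. In the fit of the 12 DMSO and medium arrays with a block, added after the data were seen, it was 6 and 6. It changed no other member call than these and that of ANXA2 over time with ethanol. Over all genes, the block moved the interaction count from 172 to 508, and leaving out single arrays moved it between 89 and 653. For ethanol at 24 h the 8 genes became 737 with array weights and 144 without both ethanol arrays of replicate 3.

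Solvent doses are not stated in the sources used here, RNA quality is known only from control probe sets on the arrays, groups of 3 leave wide intervals for S100A4, and each RNA level is relative to its array.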
